A study of Homo sapiens with 8 samples.

Results

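The genes described here encode the proteins of the small ribosomal subunit. They were taken by name, as RPSA, FAU or RPS followed by a number with an optional A, X or L, from the introns listed for SUM159 cells. This gave 29 genes of the 15902 in the files, with 111 listed introns of the 129 in their transcripts, and 11 of the 29 genes lack at least 1 intron there. SUM159 is an established human triple-negative breast cancer line of mesenchymal type. The cells were kept for 12 h with H3B-8800, a splicing modulator whose target is SF3b, a part of the spliceosome, or with its vehicle DMSO. The J2 antibody, which recognises double-stranded RNA, was used to precipitate RNA, and this J2 RNA was sequenced beside the input RNA, both as polyadenylated RNA. The 4 groups were J2 RNA with drug, J2 RNA with vehicle, input RNA with drug and input RNA with vehicle, with 2 biological replicates each. All groups come from this single line, at 1 time and with no dose named, and a precipitation with a control antibody is not analysed here.

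The small subunit binds messenger RNA, reads its codons and recruits the initiator transfer RNA. Its messages belong to the TOP class, which begin with a cytosine followed by pyrimidines and whose translation follows mTOR activity through LARP1. The genes are short and highly expressed, and several of their introns encode small nucleolar RNAs (snoRNAs) that guide the modification of ribosomal RNA. SF3b holds the branch point adenosine against the U2 small nuclear RNA before the first step of splicing, so that an intron whose branch point is not engaged can stay in the RNA.

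For each intron the files give reads inside the intron and, by difference, reads spliced across it. The intronic share below is intronic reads as a percentage of both, and levels are RPM, reads per 1000000 of the depth behind the authors' RPKM, 47000000 to 57000000 reads per library. A gene's spliced level sums its listed introns, so it is not a transcript level and is not compared between genes. The mesenchymal markers VIM, TGFBI and AXL averaged 548, 448 and 210.2 RPM over the 8 libraries, while ZEB1 stayed under 1 RPM in every one. Of 10 luminal or epithelial markers, 6 stayed under 1 RPM, ESR1 and PGR with no spliced read, while KRT8, KRT18 and ERBB2 averaged 104, 103 and 25.3 RPM, and the list summed to between 187 and 291 RPM per library. The 4 blood markers in the files stayed under 1 RPM. All 9 mesenchymal markers together summed to between 1210 and 1641 RPM in every library. In bulk RNA such as this, fewer cells of a type and less RNA per cell cannot be told apart.

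The introns on which the results turn are shown first, read from GENCODE 29 transcripts on GRCh38 that retain them, with the starting GT, the closing AG and any match to CTNAC in capitals, also with T for its first C, its last C or both. These motifs were sought on the RNA strand alone, wholly within bases 50 to 15 before the intron's end, where branch points lie. Where matches overlapped, the intron was counted once. RPS13, a protein of the subunit body, gives a pair of unlike neighbours. Its intron 1 rose with drug in both kinds of RNA. Its intron 2 was called higher in J2 RNA alone and stayed at a low share. The whole introns, at chr11:17077478-17077618 and chr11:17077247-17077428 on the minus strand, read as follows.
RPS13 intron 1: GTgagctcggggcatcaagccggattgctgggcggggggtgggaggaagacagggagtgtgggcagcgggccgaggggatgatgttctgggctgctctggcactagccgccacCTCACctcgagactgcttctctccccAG
RPS13 intron 2: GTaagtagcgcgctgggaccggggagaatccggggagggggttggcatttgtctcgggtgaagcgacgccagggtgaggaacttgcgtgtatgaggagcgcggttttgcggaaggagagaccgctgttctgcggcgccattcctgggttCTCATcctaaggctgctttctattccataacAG

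The last 60 bases are given for 6 further introns whose intronic share rose and for 2 whose share did not.
RPS29 intron 1: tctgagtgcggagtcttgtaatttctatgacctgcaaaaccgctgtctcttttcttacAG
RPS21 intron 4: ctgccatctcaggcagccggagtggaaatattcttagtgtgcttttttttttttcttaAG
RPS28 intron 2: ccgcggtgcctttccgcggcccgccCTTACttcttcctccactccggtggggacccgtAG
RPS28 intron 3: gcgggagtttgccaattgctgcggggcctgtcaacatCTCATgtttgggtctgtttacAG
RPS25 intron 1: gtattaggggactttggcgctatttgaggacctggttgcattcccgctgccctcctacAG
RPS15 intron 3: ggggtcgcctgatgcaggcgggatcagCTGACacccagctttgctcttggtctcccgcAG
RPS25 intron 2: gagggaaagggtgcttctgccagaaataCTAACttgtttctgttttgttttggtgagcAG
RPS6 intron 2: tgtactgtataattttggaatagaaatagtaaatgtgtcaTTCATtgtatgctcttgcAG
The first 6 rose, while RPS25 intron 2 and RPS6 intron 2 did not. These introns lie at chr14:49586050-49586284 (minus strand), chr20:62387915-62388308 (plus), chr19:8321704-8321952 (plus), chr19:8322092-8322271 (plus), chr11:119018054-119018281 (minus), chr19:1440254-1440348 (plus), chr11:119017546-119017957 (minus) and chr9:19378919-19379486 (minus). Among 54 member introns with a sequence, 38 (70.4%) held a match, against 54.5% of 7308 introns of all genes with a sequence of at least 60 bases. A match was found in 22 of the 33 member introns whose intronic reads rose in both kinds of RNA (66.7%) and in 16 of the other 21 (76.2%). A match is a description of the letters and not a mapped branch point.

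With drug, more of the RNA of these genes kept introns, in J2 and in input RNA alike. Summed over the 29 genes, the intronic share was 3.16 ± 0.0432% in J2 RNA with drug and 0.819 ± 0.0301% in J2 RNA with vehicle (mean ± SD, n = 2 in every group below). In input RNA it was 2.71 ± 0.0472% with drug and 0.875 ± 0.0141% with vehicle. The groups did not overlap, although 2 libraries against 2 cannot give an exact two-sided permutation p below 0.333. Over all introns with values, the share was 13.0% and 12.5% in the 2 J2 libraries with drug and 3.63% and 3.98% in those with vehicle. It was 13.0% and 10.3% in input RNA with drug and 3.81% and 3.83% with vehicle. The rise was thus not particular to these genes, whose share lay below that of all introns in every library. Intronic reads of the 29 genes summed to 619.9 ± 8.48 RPM in J2 RNA with drug and 144 ± 5.76 RPM with vehicle. In input RNA they summed to 610.4 ± 31.4 RPM with drug and 145 ± 3.68 RPM with vehicle. A few introns held most of these reads, since 10 of the 111 took 69.3% of them in J2 RNA with drug, 78.7% in J2 RNA with vehicle, 66.6% in input RNA with drug and 71.8% in input RNA with vehicle. No intronic read was counted for 7, 29, 4 and 18 introns in those groups in the same order.

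The intronic to spliced ratio per gene, tested with limma on a log2 scale after adding 1 read to each count and adjusted over all genes tested (Benjamini-Hochberg, threshold 0.05), rose with drug in 22 of 29 genes in J2 RNA. Of all genes tested, 54.8% rose there. In input RNA it rose in 20 of 29, where 56.5% of all genes rose. The members' shares are thus above the background in both, and no test of that difference was made. The median log2 change of the ratio was 2.01 over the members and 1.60 over all genes in J2 RNA. In input RNA the 2 medians were close, at 1.68 and 1.65. The ratio fell by limma in 0 members of either comparison (against 4.99% of all genes in J2 RNA and 2.06% in input RNA), with 0 at an unadjusted p under 0.05, while the fit with counting weights called 1 fall in each. With intronic and spliced counts each scaled by median-of-ratios factors, which centre the typical intronic change on 0, the split was 11 higher and 4 lower in J2 RNA and 6 and 6 in input RNA. Intronic reads by themselves, tested with edgeR's quasi-likelihood test, rose in 26 of 29 genes in J2 RNA against 56.7% of all genes. They rose in 24 of 29 in input RNA against 49.9%. They fell in 0 members of either by edgeR (against 3.84% of all genes in J2 RNA and 4.34% in input RNA), with 0 at an unadjusted p under 0.05. DESeq2, whose size factors recentre the libraries on the typical intronic change, called 15 members higher and 5 lower in J2 RNA, and 15 higher and 3 lower in input RNA. Here and below, counts under median-of-ratios scaling, DESeq2 or counting weights stand without the share of all genes or introns under the same fit. They thus describe only how the calls depend on the fit. The median log2 change of intronic reads was 2.22 over the members and 1.71 over all genes in J2 RNA, and 1.82 and 1.22 in input RNA.

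At single introns, the ratio rose in 54 of 111 in J2 RNA, where 43.3% of all introns tested rose, and fell in 4 (3.76% of all). In input RNA it rose in 47 (41.5% of all) and fell in 2 (2.69%). The members' share was thus near the background. Median-of-ratios scaling gave 19 higher and 18 lower in J2 RNA and 23 and 16 in input RNA. Of the introns that rose, 41 did so in both, which is 75.9% of those of J2 RNA and 87.2% of those of input RNA. Such overlaps were not counted over all introns, here or for the intronic reads that follow. Intronic reads by themselves rose at 49 introns of 24 genes in both, 84.5% of the rises in J2 RNA (58 introns; 32.8% of all) and 92.5% of those in input RNA (53 introns; 28.7% of all). With median-of-ratios scaling intronic reads rose at 26 and fell at 14 introns in J2 RNA and rose at 29 and fell at 10 in input RNA. The median log2 change of intronic reads per intron was 2.46 over the members and 2.31 over all introns in J2 RNA. It was 1.67 over the members and 1.83 over all introns in input RNA.

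RPS29, a small zinc-binding protein of the subunit head, showed the highest share with drug in J2 RNA among the introns named here apart from RPSA intron 1. The intronic share of its intron 1 was 54.3% and 62.8% in the 2 J2 libraries with drug and 1.27% and 0.783% in those with vehicle. It was 11% and 10.1% in input RNA with drug and 0.604% and 0.835% with vehicle. All drug libraries lay above all vehicle libraries, and the J2 drug libraries lay far above the input drug libraries. The ratio rose by 7.05 ± 0.40 (adjusted p = 0.00011) in J2 RNA and by 4.0 ± 0.40 (adjusted p = 0.00057) in input RNA (log2 ± SE, limma with Benjamini-Hochberg adjustment). Those shares rest on 1410 intronic reads of 2417 in J2 RNA with drug and 2029 of 19297 in input RNA with drug. RPS21, which sits at the solvent side of the platform, resembled it at intron 4, where the share was 49.8% and 50.7% in the 2 J2 libraries with drug and 1.02% and 1.89% in those with vehicle. It was 20.2% and 20.1% in input RNA with drug and 1.64% and 1.35% with vehicle. The RPS21 ratio rose by 6.07 ± 0.39 (adjusted p = 0.00013) in J2 RNA and 4.02 ± 0.39 (adjusted p = 0.00049) in input RNA.

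**Figure D1:**
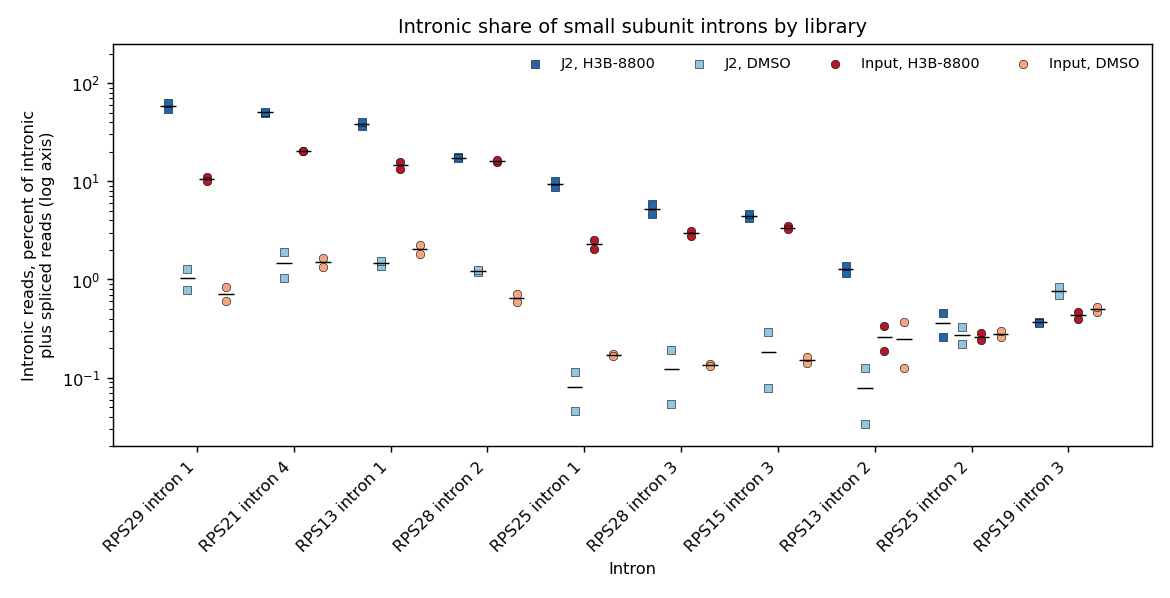
Intronic share (percent of intronic plus spliced reads, log axis) of 10 introns in J2 RNA with drug, J2 RNA with vehicle, input RNA with drug and input RNA with vehicle, with a point per library and a line at the mean of 2. RPS29 intron 1 stands at 58.5%, 1.03%, 10.6% and 0.720% in that order, while RPS25 intron 2 stays between 0.221% and 0.455% in all 8 libraries.

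In RPS13 the neighbours shown above differed. The share of intron 1 was 36.9% and 39.9% in the 2 J2 libraries with drug and 1.39% and 1.53% in those with vehicle. It was 15.6% and 13.5% in input RNA with drug and 1.83% and 2.25% with vehicle. The change of the ratio was 5.37 ± 0.33 (adjusted p = 0.00012) in J2 RNA and 3.01 ± 0.33 (adjusted p = 0.00071) in input RNA. At intron 2 the share was 1.17% and 1.37% in the 2 J2 libraries with drug and 0.0341% and 0.125% in those with vehicle. It was 0.333% and 0.186% in input RNA with drug and 0.371% and 0.125% with vehicle. Intron 2 thus rose in J2 RNA (3.68 ± 0.61, adjusted p = 0.0033), from a base of 5 intronic reads, or by 3.08 without J2 vehicle replicate 1 and 4.28 without J2 vehicle replicate 2, and its input libraries overlapped (0.07 ± 0.61, adjusted p = 0.93).

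RPS25, a head protein used by some viral internal ribosome entry sites, had a pair of neighbours that differed in both kinds of RNA. Its intron 1 stood at 8.82% and 9.97% in the 2 J2 libraries with drug and 0.115% and 0.0456% in those with vehicle. The values were 2.54% and 2.04% in input RNA with drug and 0.176% and 0.165% with vehicle. The ratio rose by 6.92 ± 0.44 (adjusted p = 0.00012) in J2 RNA and by 3.68 ± 0.44 (adjusted p = 0.001) in input RNA. At intron 2 the share ran from 0.221% to 0.455% over all 8 libraries, and the changes of 0.42 ± 0.36 (adjusted p = 0.37) in J2 RNA and -0.12 ± 0.36 (adjusted p = 0.81) in input RNA missed the threshold.

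RPS28, which lies near the exit of the messenger RNA and contacts the sequence upstream of the codons being read, was raised at all 3 introns. Intron 2 had a share of 17.6% and 17.1% in the 2 J2 libraries with drug and 1.20% and 1.26% in those with vehicle. In input RNA it was 15.8% and 16.3% with drug and 0.588% and 0.719% with vehicle. Drug and vehicle libraries were far apart in both kinds of RNA, and the ratio rose by 4.07 ± 0.31 (adjusted p = 0.00019) in J2 RNA and 4.85 ± 0.31 (adjusted p = 0.00019) in input RNA. The share of intron 3 was 5.85% and 4.64% in the 2 J2 libraries with drug and 0.190% and 0.0535% in those with vehicle, and 3.15% and 2.80% in input RNA with drug and 0.139% and 0.131% with vehicle. Its rise in J2 RNA, 5.37 ± 0.50, was 6.11 without J2 vehicle replicate 1 and 4.64 without J2 vehicle replicate 2. RPS26, another protein of the mRNA exit, had 20 and 5 intronic reads in J2 RNA with drug and 4 and 2 with vehicle. The edgeR change of 2.11 ± 0.83 (adjusted p = 0.033) rested on J2 drug replicate 1, being 0.76 without it (adjusted p = 0.56), and was also lost without either J2 vehicle library (adjusted p = 0.061 and 0.18, Benjamini-Hochberg adjustment). In input RNA it had 0.54 ± 0.58 (adjusted p = 0.46), without a call.

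RPS15, a head protein near the decoding centre, was raised at the 95-base intron 3, where the share was 4.27% and 4.65% in the 2 J2 libraries with drug and 0.0787% and 0.290% in those with vehicle, and 3.51% and 3.24% in input RNA with drug and 0.140% and 0.161% with vehicle. RPS24, a body protein mutated in some cases of Diamond-Blackfan anaemia, had the largest called rise of the ratio among member introns of input RNA at intron 3. That share was 44.2% and 24.3% in the 2 J2 libraries with drug and 7.30% and 6.11% in those with vehicle. It was 16.9% and 19.2% in input RNA with drug and 0.415% and 0.188% with vehicle. The change in input RNA was 6.05 ± 0.55 (adjusted p = 0.00041), on 347 intronic reads with drug and 12 with vehicle. RPS24 intron 1 went the other way in its ratio in J2 RNA. Spliced reads were called higher there, while intronic reads were not called lower. Its share was 17.8% and 3.43% in the 2 J2 libraries with drug and 41.7% and 37.8% in those with vehicle, and 22.7% and 25.1% in input RNA with drug and 9.20% and 11.9% with vehicle. The 2 J2 drug libraries were unlike each other there, and the fall of -2.87 ± 0.78 (adjusted p = 0.024) moved to -1.59 without J2 drug replicate 2 and to -4.15 without J2 drug replicate 1. It passed the threshold no longer without either J2 vehicle library (adjusted p = 0.097 and 0.079, limma with Benjamini-Hochberg adjustment).

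RPS3A intron 1, the single listed intron of that platform protein, had shares of 37.7% and 34.6% in the 2 J2 libraries with drug and 5.6% and 5.27% in those with vehicle. In input RNA the shares were 47.5% and 34.2% with drug and 7.05% and 6.50% with vehicle, and the ratio rose by 3.27 ± 0.38 in J2 and 3.21 ± 0.38 in input RNA. RPS20, a head protein, rose at intron 1 by 3.41 ± 0.30 (adjusted p = 0.0003) in J2 RNA and 2.12 ± 0.30 (adjusted p = 0.0021) in input RNA. RPS27 intron 2 had no intronic read with vehicle in J2 RNA (0 of 2911, which allows a share of up to 0.103%) or input RNA (0 of 2830, up to 0.106%). With drug it had 62 of 3185 reads in J2 RNA and 24 of 4590 in input RNA. Its intron 1 was retained without drug and the ratio changes missed the threshold, with a share that was 31.0% and 29.6% in the 2 J2 libraries with drug and 21.8% and 20.4% in those with vehicle, and 20.2% and 17.6% in input RNA with drug and 21.8% and 22.7% with vehicle. Limits and shares of this kind cover counting error alone, as the protocols name no molecular identifiers. RPS2 intron 2, of a protein at the entry of the mRNA channel, had 24 intronic reads of 33251 in input RNA with drug and 0 of 38271 with vehicle. Its rise of intronic reads there passed the threshold no longer without input drug replicate 2, input vehicle replicate 1 or input vehicle replicate 2 (edgeR with Benjamini-Hochberg adjustment). FAU, whose product is a ubiquitin-like protein fused to the subunit protein, had 70 intronic reads of 31206 at intron 2 in J2 RNA with drug and 0 of 21123 with vehicle.

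Other introns stayed near 0. RPS4X intron 2, of the X-linked form of a body protein, had no intronic read in any library, and 0 of 10255 reads in J2 RNA with drug allows a share of up to 0.0293%. In J2 RNA with vehicle the limit was 0.0205%, in input RNA with drug 0.0151% and in input RNA with vehicle 0.0287%. The fall called for its ratio in input RNA reflects spliced reads alone, since intronic reads were 0 throughout. RPS16 intron 1, of a head protein whose tail reaches towards the decoding site, had 3 of 37013 reads in J2 RNA with drug and 0 of 38739 in input RNA with drug. RPS7 intron 2, of a body protein, had 6 of 109087 in J2 RNA with drug and 3 of 45101 in input RNA with drug. At RPS3 intron 4, next to the mRNA entry, 4 of 71777 reads in J2 RNA with drug and 11 of 35750 in input RNA with drug were intronic. Its ratio was called higher with drug in J2 RNA (1.56 ± 0.36, adjusted p = 0.013), against 0 intronic reads with vehicle, a call lost without J2 drug replicate 2 or J2 vehicle replicate 2 (adjusted p = 0.064 and 0.062, limma with Benjamini-Hochberg adjustment) and with counting weights. RPS6 intron 2, of the protein that S6 kinases phosphorylate, had 0 of 24308 in J2 RNA with drug, a limit of 0.0123%, and 7 of 30643 in input RNA with drug. At these 5 introns the share with drug was at most 0.0413% in any library.

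RPSA intron 1, the first of the laminin receptor gene, had a high share in every library. It was 66.0% and 64.0% in the 2 J2 libraries with drug and 71.2% and 53.4% in those with vehicle, and 70.7% and 66.2% in input RNA with drug and 64.5% and 64.4% with vehicle. Only 163 to 403 reads per group fell there. In input RNA with vehicle its spliced reads were 324-fold fewer than at the best covered RPSA junction, and the ratio changed by 0.15 ± 0.40 (adjusted p = 0.78) in J2 RNA and 0.27 ± 0.40 (adjusted p = 0.62) in input RNA. Some introns went down. RPS19 intron 3, the longest of the 111 listed introns at 7818 bases, in the gene most often mutated in Diamond-Blackfan anaemia, had shares of 0.367% and 0.365% in the 2 J2 libraries with drug and 0.832% and 0.703% in those with vehicle. The shares were 0.393% and 0.471% in input RNA with drug and 0.471% and 0.521% with vehicle. Its ratio fell by 1.06 ± 0.29 (adjusted p = 0.022) in J2 RNA, a call lost without any 1 of the 4 J2 libraries (adjusted p from 0.051 to 0.11, limma with Benjamini-Hochberg adjustment). RPS19 intron 4, beside it, rose, with 0.299% and 0.373% in J2 RNA with drug and 0.0191% and 0.0121% with vehicle, and 0.580% and 0.525% in input RNA with drug and 0.00489% and 0.0358% with vehicle. The input rise of 4.81 ± 0.63 was 3.79 without input vehicle replicate 1 and 5.84 without replicate 2. At RPS23 intron 1, of the protein closest to the codon being read, the input share was 0.398% and 0.370% with drug and 0.829% and 1.40% with vehicle. That fall, -1.49 ± 0.37 (adjusted p = 0.018), was lost without either input drug library or input vehicle replicate 2 (adjusted p from 0.052 to 0.09, limma with Benjamini-Hochberg adjustment). Spliced reads at that intron were called higher in input RNA, while intronic reads were not called lower. Over the whole gene RPS23 intronic reads missed the threshold (-0.30 ± 0.31, adjusted p = 0.44).

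Whether the drug effect on the ratio differed between J2 and input RNA depended on the fit. The interaction was called for 0 of 29 genes with limma, of which 10 rises and 2 falls had an unadjusted p under 0.05, and 0.0339% of all genes were called higher and 0.237% lower. The fit with counting weights, chosen after the data were seen, called 12 members higher and 3 lower. Over introns limma called 0 of 111 (0.0% of all), with 25 rises and 13 falls at an unadjusted p under 0.05, and the fit with counting weights called 0 as well. Intronic reads per intron gave 3 interactions with edgeR (0.412% of all introns were called higher and 0.0381% lower), 1 higher and 2 lower, the lower ones at RPS21 intron 5 (-1.75 ± 0.20, adjusted p = 0.013) and RPS14 intron 2 (-1.69 ± 0.27, adjusted p = 0.039), log2 ± SE with Benjamini-Hochberg adjustment. With median-of-ratios scaling 0 were higher and 3 lower. The calls at RPS21 intron 5 and RPS14 intron 2 missed the threshold when any 1 of the 8 libraries was left out. At RPS14 intron 2 the spliced reads differed as well, by -0.82 ± 0.09 in J2 RNA and 0.93 ± 0.08 in input RNA.

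The spliced reads of these genes responded differently in J2 and input RNA. Together they summed to 19002 ± 528 RPM in J2 RNA with drug and 17434 ± 51.8 RPM with vehicle, and to 21935 ± 1521 RPM in input RNA with drug and 16409 ± 151 RPM with vehicle. Of all spliced reads they took 8.36 ± 0.234%, 7.01 ± 0.104%, 8.98 ± 0.130% and 6.46 ± 0.0103% in the same order. By edgeR's quasi-likelihood test per gene, the drug raised 11 and lowered 7 of 29 in J2 RNA, where 33.7% of all genes rose and 38.7% fell. In input RNA it raised 23 and lowered 3, where 21.5% rose and 48.2% fell. The median log2 change was 0.08 over the members and -0.03 over all genes in J2 RNA, and 0.52 against -0.39 in input RNA. With median-of-ratios scaling in edgeR, which moved the all-gene median in input RNA to 0.04, the split in input RNA was 26 higher and 2 lower. That in J2 RNA was 16 and 6. DESeq2's own fit called 26 higher and 1 lower in input RNA and 16 higher and 7 lower in J2 RNA. The interaction, which subtracts the input drug effect from the J2 drug effect, was positive for 7 and negative for 17 members, against 34.6% and 13.2% of all genes. Under median-of-ratios scaling it was 5 and 22.

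**Figure D2:**
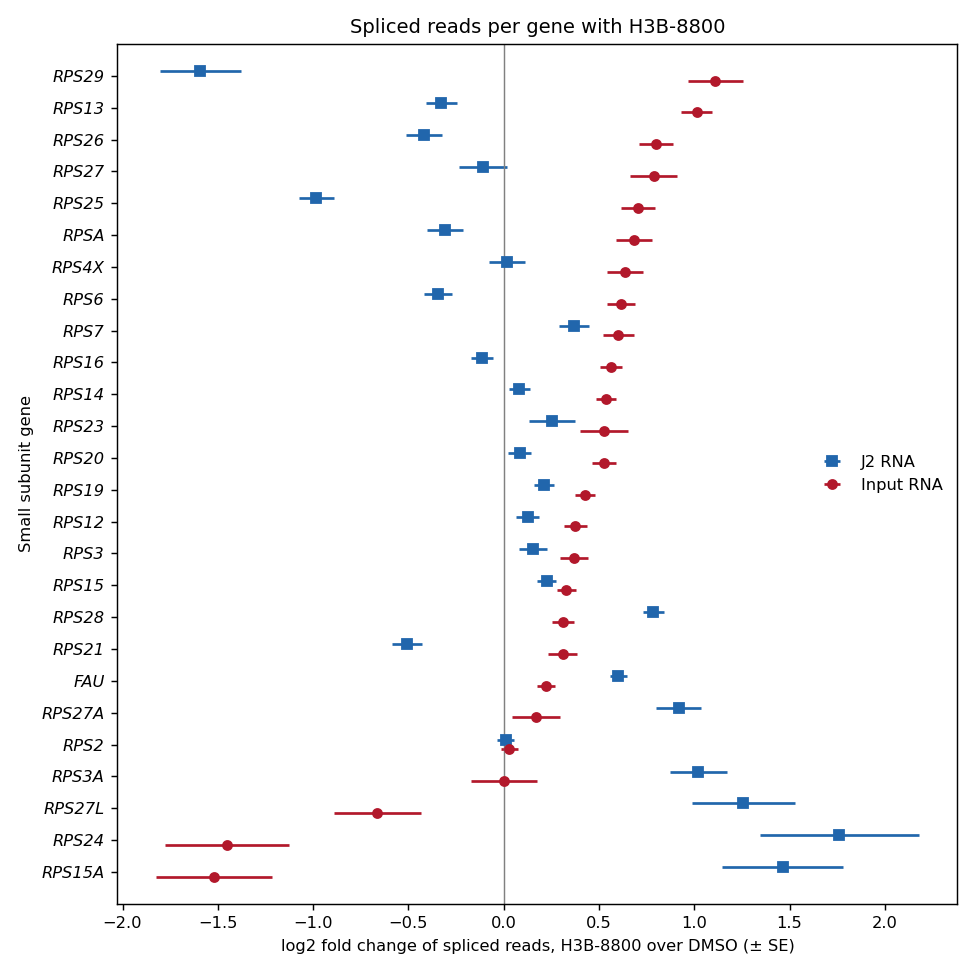
Drug effect on spliced reads of 26 of the 29 genes (log2 fold change ± SE, edgeR), in J2 RNA (blue squares) and input RNA (red circles), ordered by the value in input RNA. RPS29 stands at -1.59 in J2 and 1.11 in input RNA, and RPS24 and RPS15A lie the other way round, at 1.76 and 1.46 in J2 and -1.45 and -1.52 in input RNA.

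Among head proteins, RPS29 had 11.6 and 8.06 RPM in J2 RNA with drug and 27.8 and 31.1 RPM with vehicle. It had 154 and 209 RPM in input RNA with drug and 89.1 and 79.1 RPM with vehicle. The drug groups lay below the vehicle groups in J2 RNA and above them in input RNA, with changes of -1.59 ± 0.21 (adjusted p = 0.0001) and 1.11 ± 0.15 (adjusted p = 9.7e-05) and an interaction of -2.70 ± 0.25 (adjusted p = 0.00014), log2 ± SE by edgeR. RPS25 fell in J2 RNA, with 149 and 128 RPM in J2 RNA with drug and 268 and 279 RPM with vehicle. It rose in input RNA, with 448 and 533 RPM in input RNA with drug and 299 and 303 RPM with vehicle, and the interaction was -1.69 ± 0.13 (adjusted p = 5.8e-05). For other proteins of the head the change in J2 RNA was 0.23 ± 0.05 for RPS15 and 0.21 ± 0.05 for RPS19, both called higher, and 0.13 ± 0.06 for RPS12, -0.11 ± 0.06 for RPS16 and 0.08 ± 0.06 for RPS20, none of them called. In input RNA these 5 were called higher, by 0.33, 0.43, 0.37, 0.56 and 0.53 in the same order.

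Among proteins of the body, RPS13 had 114 and 114 RPM in J2 RNA with drug and 139.6 and 147 RPM with vehicle. It had 287 and 348 RPM in input RNA with drug and 159 and 157 RPM with vehicle. It was lower with drug in J2 RNA (-0.33 ± 0.08, adjusted p = 0.0052) and higher in input RNA (1.01 ± 0.08, adjusted p = 3.2e-06), with an interaction of -1.34 ± 0.11 (adjusted p = 9.1e-05). RPS15A and RPS24 did the opposite. RPS15A had 30.7 and 71.9 RPM in J2 RNA with drug and 19.0 and 18.4 RPM with vehicle. It had 23.4 and 26.7 RPM in input RNA with drug and 70.9 and 73.1 RPM with vehicle. RPS24 had 15.6 and 46.5 RPM in J2 RNA with drug and 10.1 and 8.42 RPM with vehicle, and 33.3 and 31.7 RPM in input RNA with drug and 88.1 and 89.7 RPM with vehicle. Both had 2 unlike J2 drug libraries, yet in J2 RNA each drug library lay above each vehicle library. The J2 rise was 1.46 ± 0.32 (adjusted p = 0.0023) for RPS15A and 1.76 ± 0.42 (adjusted p = 0.0039) for RPS24, and was 0.71 and 0.76 without J2 drug replicate 2. In input RNA RPS15A fell by 1.52 ± 0.30 (adjusted p = 0.0015) and RPS24 by 1.45 ± 0.33 (adjusted p = 0.003), and the interactions were 2.98 ± 0.44 (adjusted p = 0.00074) and 3.21 ± 0.53 (adjusted p = 0.0013), or 2.24 and 2.21 without J2 drug replicate 2.

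Other body proteins were called higher in input RNA, RPS4X by 0.64 ± 0.09, RPS6 by 0.62 ± 0.07, RPS7 by 0.60 ± 0.08 and RPS27, a zinc finger protein, by 0.79 ± 0.12. In J2 RNA only RPS6 (-0.35 ± 0.07, lower) and RPS7 (0.37 ± 0.08, higher) of these 4 were called, and RPS4X had 0.02 ± 0.09 and RPS27 -0.11 ± 0.12. RPS27L, a paralog of RPS27 whose gene is induced by p53, was the least covered member, with 6.86 and 12.6 RPM in J2 RNA with drug and 3.81 and 4.37 RPM with vehicle. It had 7.62 and 9.44 RPM in input RNA with drug and 14.2 and 12.8 RPM with vehicle. Its J2 rise was 1.26 ± 0.27 (adjusted p = 0.0023) and its input fall -0.66 ± 0.23 (adjusted p = 0.027), and the input call was lost without any 1 of the 4 input libraries (adjusted p from 0.053 to 0.17, edgeR with Benjamini-Hochberg adjustment). The direct test of the difference between RPS27L's effects, the interaction, gave 1.92 ± 0.36 (adjusted p = 0.0023).

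At the platform and the mRNA exit, RPSA was higher with drug in input RNA (0.68 ± 0.10, adjusted p = 0.00015) and lower in J2 RNA (-0.31 ± 0.09, adjusted p = 0.015), the J2 call being lost without J2 drug replicate 2 or either J2 vehicle library (adjusted p from 0.052 to 0.07, edgeR with Benjamini-Hochberg adjustment). RPS26 and RPS21 likewise fell in J2 RNA, by 0.42 ± 0.09 and 0.51 ± 0.08, and rose in input RNA, by 0.80 ± 0.09 and 0.31 ± 0.08. RPS14, a gene lost in a deletion form of myelodysplastic syndrome, rose in input RNA (0.54 ± 0.05) and had 0.08 ± 0.05 in J2 RNA, without a call. RPS28 rose in both, by 0.79 ± 0.06 in J2 and 0.31 ± 0.06 in input RNA. RPS3A had 23.8 and 25.8 RPM in J2 RNA with drug and 11.1 and 13.2 RPM with vehicle, a rise of 1.02 ± 0.15. In input RNA its change was 0.00 ± 0.17.

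Of the proteins that line the mRNA channel, RPS2 had no call in either RNA (0.01 ± 0.04 in J2, 0.03 ± 0.04 in input). Summed over its introns free of other exons and small RNAs alone, RPS2 was lower with drug in input RNA (-0.15). RPS3 and RPS23 were called higher in input RNA, by 0.37 ± 0.07 and 0.53 ± 0.13, and had 0.15 ± 0.07 and 0.25 ± 0.12 in J2 RNA, without a call. Of the 2 fusion proteins, RPS27A, made as ubiquitin joined to the ribosomal protein, had 782 and 999 RPM in J2 RNA with drug and 495 and 447 RPM with vehicle. It had 144 and 177 RPM in input RNA with drug and 140.5 and 145 RPM with vehicle, so that its J2 libraries lay far above its input libraries, and above all with drug. The drug effect was 0.92 ± 0.12 (adjusted p = 8.4e-05) in J2 RNA and 0.17 ± 0.13 (adjusted p = 0.26) in input RNA. FAU rose in both, by 0.60 ± 0.05 (adjusted p = 2.3e-06) in J2 and 0.22 ± 0.05 (adjusted p = 0.0019) in input RNA.

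The sums over a gene hid differences between its own junctions. Per intron, spliced reads rose at 56 and fell at 32 of 111 in J2 RNA (23.7% and 45.8% of all introns; 75 and 20 with median-of-ratios scaling), and rose at 75 and fell at 20 in input RNA (20.7% and 48.1%). In input RNA 7 of the 27 genes with at least 2 listed introns had junctions called both ways, and in RPS15A and RPS24 every listed junction fell. The share of all genes with such junctions was not counted. RPS12, a head protein, showed differences between junctions along its length. At its intron 1 spliced reads were 451 and 394 RPM in J2 RNA with drug and 351 and 396 RPM with vehicle, and 417 and 442 RPM in input RNA with drug and 323 and 329 RPM with vehicle. At its intron 4, which hosts SNORD100, they were 30.1 and 76.5 RPM in J2 RNA with drug and 9.02 and 10.8 RPM with vehicle, and 11.4 and 12.1 RPM in input RNA with drug and 37.1 and 35.0 RPM with vehicle. The change at intron 4 was 2.43 ± 0.28 (adjusted p = 2.1e-06) in J2 RNA and -1.61 ± 0.28 (adjusted p = 0.00013) in input RNA, and the J2 value was 1.60 without J2 drug replicate 2. Spliced RPM differed more than 10-fold between the highest and the lowest junction of the same gene in 6 genes of input RNA with vehicle, RPSA (324-fold), RPS25 (77.2), RPS7 (31.1), RPS2 (21.3), RPS12 (14.0) and RPS20 (10.3).

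**Figure D3:**
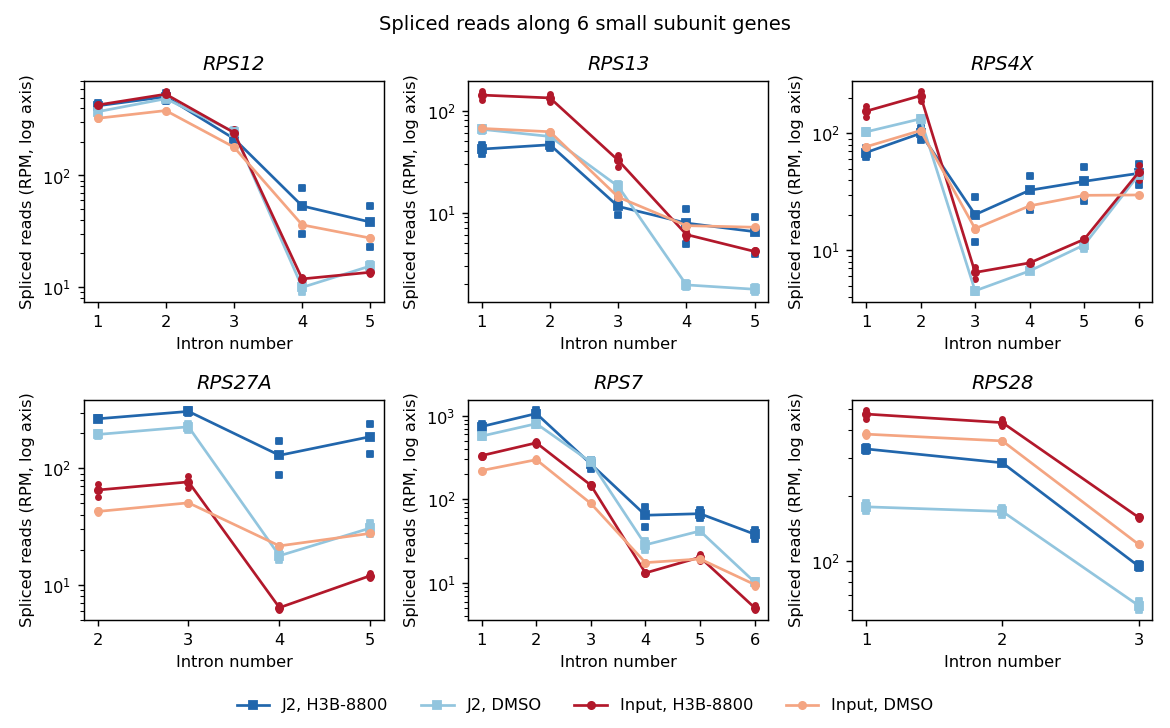
Mean spliced reads (RPM, log axis) at each listed intron of RPS12, RPS13, RPS4X, RPS27A, RPS7 and RPS28 by intron number from the 5′ end, in the 4 groups. In RPS12 the groups lie close at intron 1 (422, 374, 429 and 326 RPM for J2 drug, J2 vehicle, input drug and input vehicle) and apart at intron 4 (53.3, 9.90, 11.8 and 36.0 RPM).

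RPS27A, RPS4X, RPS15A and RPS27L had junctions of this kind too. At RPS27A intron 4 spliced reads changed by 2.86 ± 0.21 in J2 and -1.76 ± 0.23 in input RNA, and at RPS27A intron 5 by 2.60 ± 0.19 in J2 and -1.20 ± 0.20 in input RNA. The changes at RPS4X intron 4 were 2.29 ± 0.21 in J2 and -1.62 ± 0.21 in input RNA. For RPS15A intron 2 they were 2.49 ± 0.29 in J2 and -1.78 ± 0.26 in input RNA, and for RPS27L intron 3 2.36 ± 0.30 in J2 and -1.74 ± 0.26 in input RNA. All 5 were called, higher in J2 RNA and lower in input RNA, and RPS15A intron 2 stood at 1.72 in J2 RNA without J2 drug replicate 2. The opposite pattern was seen at RPS26 intron 2 (-1.07 ± 0.11 in J2 and 1.14 ± 0.11 in input RNA) and at RPS13 intron 3, which hosts SNORD14B (-0.65 ± 0.15 in J2 and 1.20 ± 0.15 in input RNA). Over all members, 19 of the 20 junctions that fell in input RNA rose in J2 RNA (95% of these falls and 33.9% of the J2 rises), and 32 rose in input RNA and fell in J2 RNA (42.7% of the input rises and 100% of the J2 falls). A further 23 rose in both, in 12 genes, and 0 fell in both. How many of all introns tested show each of these pairs of calls was not counted. The interaction, which tests the difference itself, was positive at 36 and negative at 51 junctions, against 25.8% and 18.5% of all introns tested.

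Across the 111 junctions the drug effect in J2 RNA ran against that in input RNA, with Pearson's r of -0.893 and Spearman's rho of -0.831. This is a correlation across introns that share libraries and genes, given as a description without a p. Pearson's r was -0.916 without J2 drug replicate 1 and -0.787 without J2 drug replicate 2. It was -0.824 over 175 introns of large-subunit genes and 0.581 over 30257 introns of all genes. The medians differed between classes of base composition. At the 17 member junctions whose flanking exon bases (100 on each side) held under 45% GC, the median change was 1.88 in J2 and -0.92 in input RNA. At the 24 junctions of 50% to 55% GC it was -0.41 in J2 and 0.71 in input RNA. In the other classes both medians were positive, at 0.37 in J2 and 0.26 in input RNA for the 26 junctions of 45% to 50%. They were 0.15 and 0.51 for the 25 of 55% to 60%, and 0.30 and 0.28 for the 19 of at least 60%. All introns tested moved the same way under 45% GC, with medians of 1.09 and -0.44. At 50% to 55% they had -0.60 in J2 and 0.04 in input RNA. The 2 J2 drug libraries also differed by base composition, replicate 2 exceeding replicate 1 by a median of 0.94 (log2) at member junctions under 45% GC and by -0.03 at those of 50% to 55%. Over the 94 junctions of at least 45% GC Pearson's r was -0.851 and Spearman's rho -0.775. The part of base composition and of that library in the result was not tested.

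**Figure D4:**
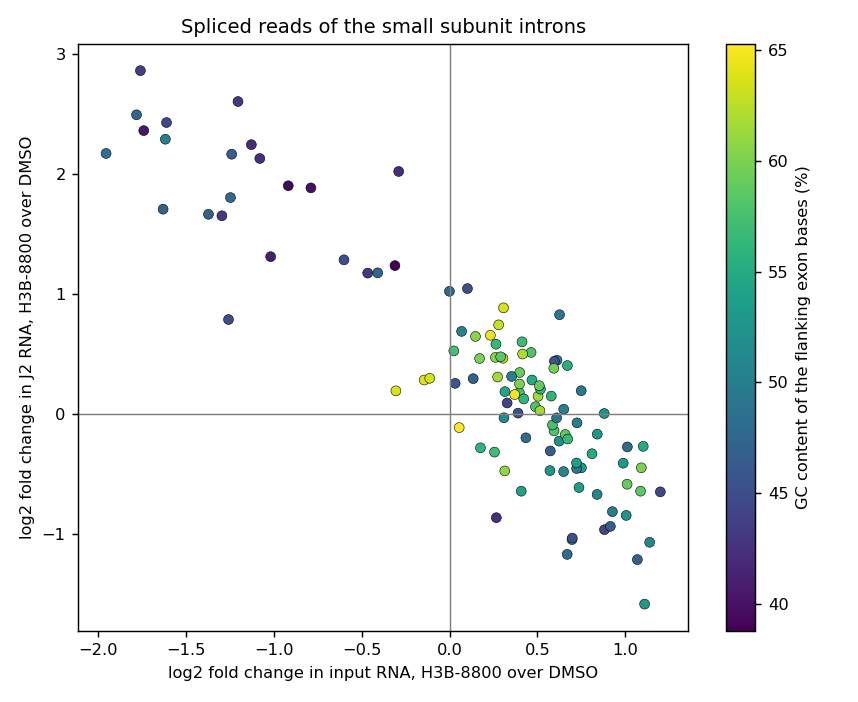
Drug effect on spliced reads (log2 fold change) at 111 member introns, in input RNA on the x axis and J2 RNA on the y axis, coloured by the GC percentage of the flanking exon bases. The points fall along a downward slope (r = -0.893), with most of the junctions under 45% GC at the upper left.

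J2 recovery itself, set against input RNA, differed between members. With drug, edgeR called the spliced reads of 7 members higher and 16 lower in J2 RNA (26.4% and 26.4% of all genes), and with vehicle 9 higher and 11 lower (16.9% and 44.4%). Median-of-ratios scaling changed the split with vehicle to 19 higher and 9 lower, and RPS13, at -0.14 ± 0.08 with vehicle with the deposited depths, then stood at 0.26. RPS27A was highest in both, at 2.47 ± 0.13 (adjusted p = 9.1e-07) with drug and 1.72 ± 0.12 (adjusted p = 6.6e-06) with vehicle. RPS7, RPS23 and RPS3 were also higher in J2 RNA in both, by 1.17 ± 0.08, 1.12 ± 0.12 and 0.96 ± 0.07 with drug and 1.40 ± 0.08, 1.40 ± 0.13 and 1.17 ± 0.07 with vehicle. RPS29 and RPS21 were lower in both, with -4.21 ± 0.19 and -2.21 ± 0.08 with drug and -1.51 ± 0.16 and -1.39 ± 0.08 with vehicle. RPS24 was lower with vehicle (-3.27 ± 0.38, adjusted p = 9.7e-05), and with drug its value was -0.05 ± 0.35 (adjusted p = 0.91). RPS15A was lower with vehicle (-1.95 ± 0.31, adjusted p = 0.00059) and higher with drug (1.04 ± 0.31, adjusted p = 0.019), the call with drug being lost without either input drug library (adjusted p = 0.12 and 0.079, edgeR with Benjamini-Hochberg adjustment) and moving to 0.29 without J2 drug replicate 2.

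How many members differed between J2 and input RNA in the ratio depended on the fit. By limma the ratio per gene was called higher in J2 RNA for 2 members with drug (0.915% of all genes), RPS29 (3.58 ± 0.36, adjusted p = 0.023) and RPS13 (1.58 ± 0.26, adjusted p = 0.039), and lower for 0 by limma (2.03% of all genes), with 2 at an unadjusted p under 0.05. The fit with counting weights called 11 higher and 5 lower. Spliced reads of RPS29 and RPS13 were lower in J2 than in input RNA with drug (-4.21 and -1.48, log2 by edgeR). Mean intronic RPM in J2 and input RNA with drug was 13.7 and 21.3 for RPS29 and 28.2 and 26.2 for RPS13. With vehicle 3 were called higher (3.42%), RPS12, RPS15A and RPS24, and 2 lower (4.6%), RPS27A and RPS6 (3 and 1 with median-of-ratios scaling), where the fit with counting weights called 5 higher and 8 lower. Each of these 7 calls was lost under 6 to 8 of the 8 fits that left out 1 library (adjusted p from 0.05 to 0.18, limma with Benjamini-Hochberg adjustment). Spliced reads with vehicle were lower in J2 RNA for RPS24 (-3.27) and RPS15A (-1.95), and higher for RPS27A (1.72) and RPS6 (0.95). Mean intronic RPM in J2 and input RNA was 1.36 and 2.62 for RPS24, 0.385 and 0.4375 for RPS27A and 0.32 and 0.532 for RPS6. RPS15A had 0.491 and 0.509 RPM in J2 and 0.354 and 0.549 in input libraries. RPS12 differed, at 25.2 and 6.21 RPM with a spliced value of 0.25. Intronic reads were not tested between J2 and input RNA.

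Genes that work with the small subunit were read from lists of names. Their counts stand beside the shares of all genes whose spliced reads rose (33.7% in J2 and 21.5% in input RNA) and fell (38.7% in J2 and 48.2% in input RNA). Of the large-subunit genes tested, 44 in all, spliced reads rose in 13 and fell in 21 in J2 RNA (median -0.12), and rose in 32 and fell in 3 in input RNA (median 0.56). RPL10, one of the last proteins to join the large subunit, rose by 1.36 ± 0.11 in input RNA, and RPL28 fell by 1.14 ± 0.07 in J2 RNA. Of 44 tested genes listed as small-subunit assembly factors, 17 rose and 19 fell in J2 RNA, and 7 rose and 27 fell in input RNA (medians 0.13 and -0.73). The J2 split was thus near that of all genes. That list also names ENY2, which is not such a factor, and FBL, which the list of other TOP messages names as well. DIMT1, a methyltransferase of the small-subunit ribosomal RNA, had -3.19 ± 0.16 and TBL3, a component of the small-subunit processome, -2.16 ± 0.07 in input RNA. The intronic to spliced ratio of the assembly factors rose in 23 of 44 in J2 and 31 in input RNA, and that of the large-subunit genes in 31 of 44 in J2 and 23 in input RNA. Of all genes 54.8% rose in J2 and 56.5% in input RNA, so that the assembly factors in J2 RNA and the large-subunit genes in input RNA were near that share. Other TOP messages rose in spliced reads in 12 of 21 in J2 RNA and 14 in input RNA, and fell in 4 and 3. EIF4B, a cofactor of the initiation helicase, rose by 1.21 ± 0.08 in input RNA. Of 12 genes of mTOR and S6 kinase signalling, 5 rose and 4 fell in J2 RNA and 3 rose and 6 fell in input RNA. RPS6KA1, a ribosomal S6 kinase gene that is no subunit protein, had -3.02 ± 0.08 in J2 and -3.13 ± 0.09 in input RNA, and MTOR -1.19 ± 0.11 and -1.29 ± 0.08.

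The member genes share features that the choice by name did not use. Of the 23 members with a RefSeq promoter (GRCh38.p14), 19 (82.6%) had a cytosine followed by at least 4 pyrimidines. This match was sought from 5 bases before to 10 after the annotated start, on the strand of the gene. It was found in 22.4% of 35116 promoters. The members were counted as genes and the background as single promoters, so these percentages are in unlike units and do not measure an excess. RPS15, RPS27L, RPS29 and RPS4X had no such match. In 8 genes, 16 introns host a snoRNA, and 90 of the 111 introns are free of other exons and small RNAs. At 4 introns an exon of a gene on the other strand overlaps, and since strand handling during counting is not given in the sources used here, reads of the pair cannot be told apart there. The 49 introns whose intronic reads rose in both J2 and input RNA had a median of 321 bases and flanking exons of 56.0% GC, and the other 62 had 464.5 bases and 48.8%. Of the 49, 7 host a snoRNA, and of the 62, 9 do. The median GC of the introns was 57.0% over the 33 of the 49 with a sequence and 41.9% over 21 of the others, given as a description with no test. GENCODE 29 lists pseudogenes of many members, with 74 for RPSA, 38 for RPS3A, 32 for RPS29 and 30 for RPS26, and none for RPS27L. Reads across exon junctions can match such copies as well, and the spliced reads of these genes are uncertain to that degree.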

How the data were processed

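Polyadenylated RNA was sequenced as stranded libraries with inserts of about 300 bases, per the labels' protocols. Alignment with HISAT2 2.0.4 and the builds hg38 and mm10 are listed in the submitters' processing notes. Strand handling and the counting program are not given in the sources used here. The authors deposited, per intron, 2 whole-number read counts and an RPKM. The RPKM equals the first deposited count divided by intron length and a whole-number depth, 47000000 to 57000000 per library, and was used for that depth only. The first count was taken as intronic reads and the excess of the second as spliced reads, which was inferred from the values and is stated nowhere. Introns matched GENCODE 29 on GRCh38. Of 142224 listed introns, 18 lack values and were left out, leaving 142206. Intronic plus spliced reads totalled 12612577 to 14643731 per library.

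Reads were tested per gene and per intron with edgeR 4.0.16 (quasi-likelihood, the depths as library sizes) and ratios with limma 3.58.1 on log2((intronic + 1)/(spliced + 1)), in R 4.3.3, over all 8 libraries with 4 group means. P-values were adjusted over all features by Benjamini-Hochberg with a threshold of 0.05. Genes needed at least 1 RPM in 2 libraries and introns at least 20 reads in each of the 8. The tests were tried on simulated data, where limma on ratios per intron recovered few or no changes, so edgeR on reads per intron and limma with counting weights were added after the data were seen. DESeq2 1.42.0, TMM and median-of-ratios scaling, other filters and pseudocounts, a replicate block and leaving out each library were the alternatives. The members and the gene lists were chosen with earlier results of these data known. All 29 members were counted, and the values of some are not reported here. By the rule for naming, each comparison and measure gave up to 6 called members per direction with the largest change and one sign over all pairs of libraries. Up to 6 called introns with the largest ratio change were named, up to 6 introns of at least 200 reads in every library with the lowest share with drug, members under 5 RPM, 12 members with a particular role, and the 3 genes of each list with the smallest p. Other members and introns were named after their values were seen.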

Additional observations from a re-analysis of the deposited data

Results flagged for a closer look

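The drug effect on spliced reads differed between J2 and input RNA in 24 of the 29 genes, 7 higher and 17 lower. This was a test of the difference itself (edgeR interaction of drug and J2, Benjamini-Hochberg adjusted p under 0.05). Of all genes tested, 34.6% were called higher and 13.2% lower. The difference, the J2 drug effect minus the input drug effect on the log2 scale, was -2.70 for RPS29, -1.69 for RPS25, -1.34 for RPS13, -1.21 for RPS26, -0.99 for RPSA, -0.96 for RPS6, -0.90 for RPS27 and -0.82 for RPS21. It was -0.68 for RPS16, -0.62 for RPS4X, -0.45 for RPS14, -0.44 for RPS20, -0.25 for RPS12 and -0.22 for RPS19. It was positive for 7 genes, at 0.38 for FAU, 0.47 for RPS28, 0.75 for RPS27A, 1.02 for RPS3A, 1.92 for RPS27L, 2.98 for RPS15A and 3.21 for RPS24. The RPS19 value passed the threshold no longer without J2 drug replicate 2, input drug replicate 2, or any 1 of the 4 vehicle libraries (adjusted p from 0.065 to 0.14). That of RPS12 was lost without J2 drug replicate 2, J2 vehicle replicate 2, input drug replicate 2 or either input vehicle library (adjusted p from 0.083 to 0.15). The values for RPS15A and RPS24 were 2.24 and 2.21 without J2 drug replicate 2. At the 17 member junctions whose flanking exons held under 45% GC the median difference per junction was 2.67, and J2 drug replicate 2 exceeded replicate 1 there by a median of 0.94 (log2). The part of either in the result was not tested.

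For intronic reads the same test called RPS21 intron 5 at -1.75 and RPS14 intron 2 at -1.69. Each missed the threshold when any 1 of the 8 libraries was left out. At RPS21 intron 5 the intronic share was 34.6% and 30.4% in J2 RNA with drug and 17.6% and 16.7% with vehicle, and 30.9% and 31.3% in input RNA with drug and 10.5% and 12.2% with vehicle. Groups of 2 libraries are too small to test for a single library that stands apart.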

How the results depend on the processing

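For 15 counts of members called, rises and falls summed, 204 of 233 alternative values stayed within 1.5 times. A shift between rises and falls does not show in such sums. For spliced reads of J2 against input RNA with vehicle, 9 higher and 11 lower became 19 and 9 with DESeq2. For intronic reads per gene in input RNA, 24 higher and 0 lower became 15 and 3 with DESeq2. Both are scored as within 1.5 times. All 29 that moved were counts of ratio calls. Median-of-ratios scaling gave 12 called genes for the drug effect in input RNA (20 in the report) and 37 introns in J2 RNA (58). The comparison of J2 against input RNA with vehicle (5) gave 13 with counting weights, 10 with a filter on the measure itself, 1 with no filter, 3 with pseudocount 0.5, 0 with the replicate block and 0 to 3 without a library. With drug (2) these were 16, 12, 0 with no filter, 0 with the block and 0 to 1. The interaction (0) gave 15 with counting weights and 9 with the filter. Counting weights were chosen after seeing the data. The cause was not tested. Leaving out a library gave 17 to 22 called genes for spliced reads in J2 RNA and 25 to 26 in input RNA, and 0 for the intronic interaction per intron (3).

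Of 4059 values for single genes and introns, 3766 kept direction and call, 192 lost and 68 gained a call, and 33 reversed. Over introns free of other exons, RPS2 had -0.15 in spliced reads of input RNA and 0.43 in the interaction. RPS13 in J2 against input with vehicle had 0.26 with DESeq2 and median-of-ratios scaling. That scaling turned the ratio in input RNA to -0.54 (RPS19), -0.42 (RPS2), -0.015 (RPS27A), -1.53 (RPS4X), -1.53 (RPS6) and -1.26 (RPSA), and in J2 RNA to -0.58 (RPS14), -0.84 (RPS19) and -0.28 (RPS2). Intronic reads under DESeq2, TMM and median-of-ratios scaling, which centre the typical intronic change on 0, were -0.46, -0.43 and -0.46 (RPS4X) and -0.16, -0.12 and -0.16 (RPSA) in input RNA. In J2 RNA they were -0.44, -0.26 and -0.44 (RPS14), -0.56, -0.38 and -0.56 (RPS19), -0.20, -0.025 and -0.20 (RPS2) and -0.60, -0.43 and -0.60 (RPS4X), and -0.050 with DESeq2 and -0.050 with median-of-ratios for RPSA.

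The sample titles give replicate numbers and do not say whether samples of the same number come from the same culture. Correlations of the deviations of same-numbered libraries ran from -0.0803 to 0.0984. With 2 libraries per group these cannot show that the samples were unpaired. The replicate block left 268 single values with the same call and cost 8 theirs.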
